A study of Mus musculus with 8 samples.

Results

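Regulatory T cells (Tregs) polarized in culture were examined for 44 genes of DNA replication and nucleotide synthesis. They were listed by symbol for their function, and fall into 5 roles: licensing and helicase (16 genes), polymerases (9), clamp, clamp loader and strand processing (11), nucleotide supply (5) and chromatin assembly (3). Each of the 44 symbols matched a single one of the 53465 gene IDs in the deposited counts, and all 44 were among the 14443 genes expressed highly enough to be tested. Their smallest count in any library was 613.

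The libraries came from wild-type C57BL/6 mice. CD4+ T cells, positively selected from lymph nodes and spleen, were activated on plate-bound anti-CD3 (5 µg/mL). TGF-β (5 ng/mL), IL-2 (100 U/mL) and anti-CD28 (0.5 µg/mL) were added. Antibodies that block IL-4, IL-12 and IFN-γ were present at 10 µg/mL. After 72 h the cells were divided, and 1 portion received BMS309403 at 50 µM, a small molecule that the submitters name as an inhibitor of FABP5, a carrier protein for fatty acids. The control group held 4 libraries without the compound and the treated group 4 libraries with it. The labels name no vehicle in the controls, no duration of exposure, and no sorting of Foxp3+ cells after polarization. Whether replicates stand for different mice or different cultures is not stated, so the p-values reflect the variation among these 8 libraries, and it may be technical.

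A cell copies its genome once per division. The origin recognition complex, Cdc6 and Cdt1 load the MCM helicase onto origins, and Cdc45 and GINS turn it into the active helicase that unwinds DNA at the fork. Polymerase alpha-primase lays down primers, polymerases delta and epsilon extend them on a sliding clamp placed by a clamp loader, and the strands are finished by a nuclease and a ligase. Ribonucleotide reductase and its partners supply the deoxynucleotides, and histone chaperones rebuild chromatin behind the fork. Activated T cells divide fast and transcribe these genes at high levels, many of them under control of E2F transcription factors at entry into S phase.

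Of the 44 genes, 30 fell in the treated cells and 0 rose at an adjusted p under 0.05 in edgeR's quasi-likelihood test. At an unadjusted p under 0.05, 32 were lower and 1 was higher, and DESeq2 and limma-voom also called 30 lower and 0 higher. Of all 14443 tested genes, 18.1% were called lower and 18.7% higher. The median log2 fold change of the 44 genes was -0.17, against 0.01 for all tested genes. The changes were small. The called genes were lower by 7.18% to 29.0%, with a median of 14.9%, which is a fold of 1.08 to 1.41. With the replicate number as a block in the model, 33 were called lower and 1 higher, against 25.8% and 26.6% of all tested genes. By size, 7 were lower by more than 20%, 17 by 10% to 20%, and 6 by less than 10%. In 25 of the 30 every treated library lay below every control library, a pattern held by 16.1% of all tested genes. In 36 of the 44 the treated library was below the control library of the same number in all 4 pairs, as in 29.0% of all tested genes. The 5 called genes whose groups overlapped were Cdc6, Gins2, Fen1, Uhrf1 and Chaf1a. In these bulk libraries, fewer cycling cells and less RNA per cell cannot be told apart.

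**Figure D1:**
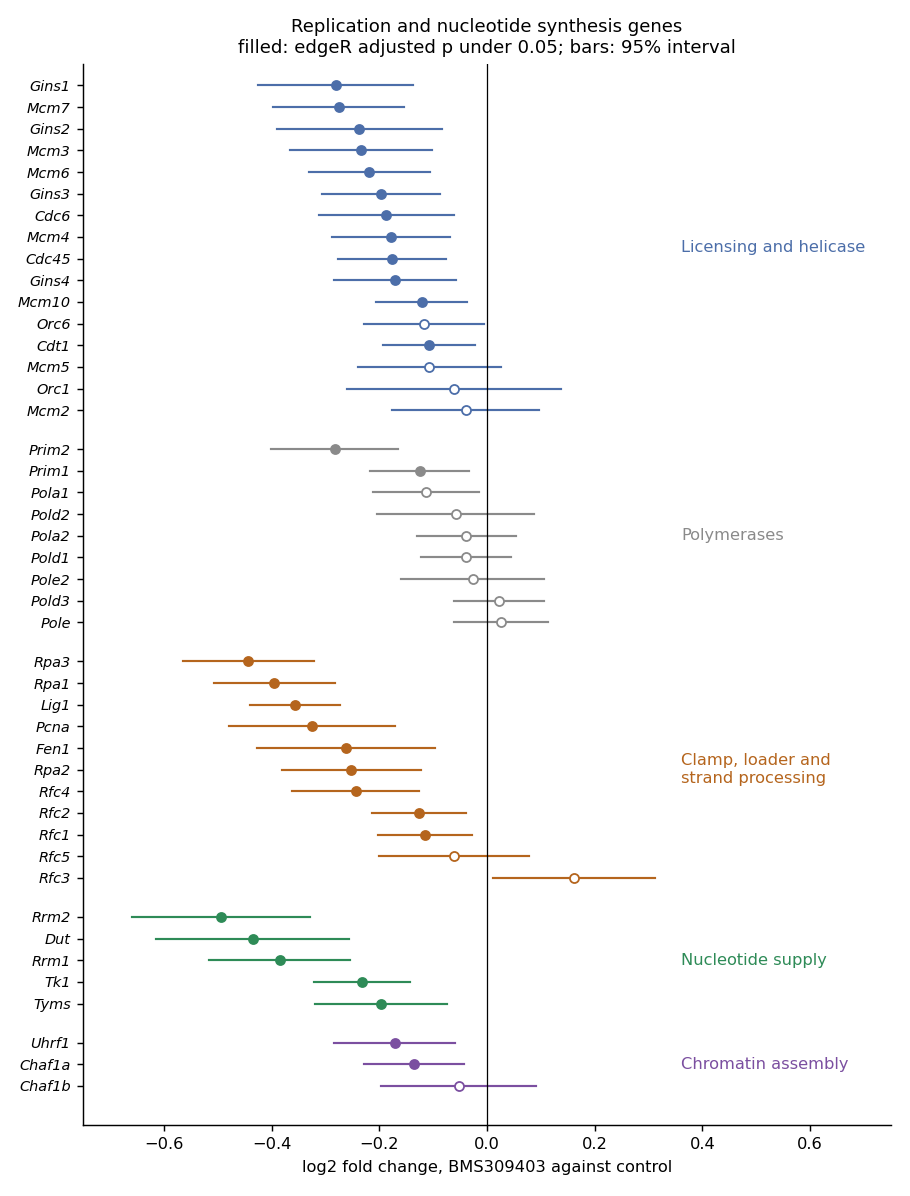
Fitted log2 fold change (x axis, BMS309403 against control) of each of the 44 genes, grouped by role, with 95% intervals from 4 libraries per group. Filled points passed an adjusted p of 0.05. All 5 nucleotide supply genes lie left of 0 with filled points, while 7 of 9 polymerase genes are open.

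The 44 genes together held 0.770%, 0.721%, 0.730% and 0.714% of all counts in control libraries 1 to 4. In treated libraries 1 to 4 they held 0.683%, 0.619%, 0.630% and 0.629%. The groups did not overlap, and replicate 1 was the highest in both. Replicate 1 was the highest control library for 36 of the 44 genes and the highest treated library for 37, against 35.9% and 31.3% of all genes. Without replicate 1 of both groups, a check chosen after seeing the data, 32 genes were called lower and 1 higher. The number called lower depended on single libraries of both groups. It was 17 without treated replicate 2 and 19 without treated replicate 4. Control 3 and treated 3, when left out, cost 9 and 8 of the calls. Of the 30 genes, 17 were called in every one of the 8 fits that left out a library. The same share over all tested genes was not counted, and the number of all genes called also changed in these fits, as given below.

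**Figure D2:**
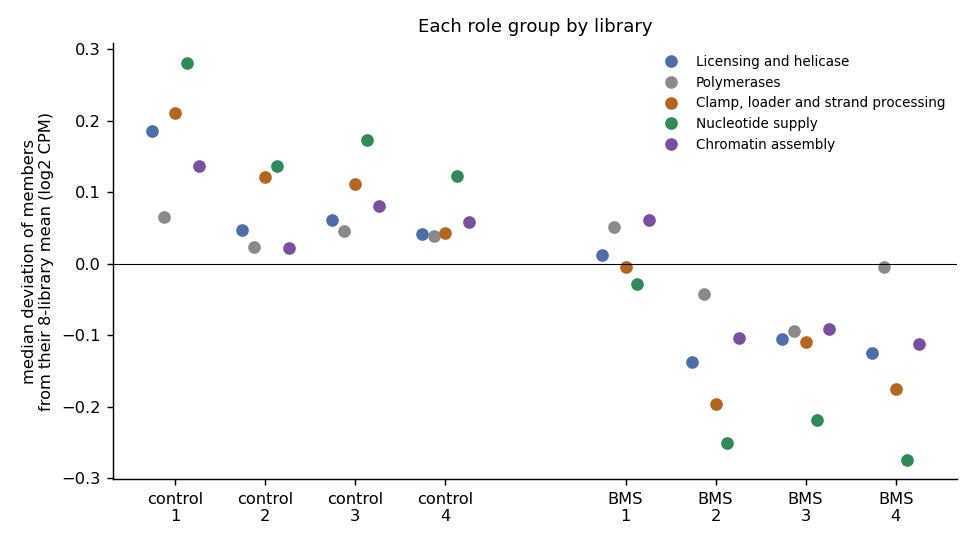
Median over the genes of each role of their log2 CPM (counts scaled to an equal library size) minus their own mean over the 8 libraries (y axis), for each library (x axis, BMS stands for BMS309403). Nucleotide supply genes spread widest, from 0.28 in control 1 to -0.27 in treated 4, and polymerase genes least, from 0.06 to -0.09.

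The libraries held 32923433 to 44644485 counts. Foxp3, the transcription factor that defines Tregs, stood at 901 to 1029 CPM in controls and 1234 to 1262 CPM in treated libraries. Fabp5, whose protein the compound is meant to block, was at 178 ± 23.7 CPM in controls and 153 ± 18.3 CPM in treated libraries (SD, n = 4). This did not pass the test (log2 fold change -0.22 ± 0.10 SE, edgeR adjusted p = 0.0934), and did with the replicate number as a block (edgeR adjusted p = 1.29e-05). Of 8 T cell and Treg markers, 4 rose and 2 fell. Foxp3, Il2ra, Ikzf2 and Tnfrsf18 rose, and Cd4 and Ctla4 were not called. Cd3e and Cd3d fell (27.4% and 22.3% lower, edgeR adjusted p = 2.54e-05 and 8.49e-05). Markers of other cells were low. Summed over their lists, 5 B cell markers reached 5.86 to 8.72 CPM in controls and 4.74 to 7.45 CPM in treated libraries, 8 myeloid markers 4.49 to 6.42 and 3.15 to 6.21 CPM, and 2 CD8 T cell markers 9.89 to 14.3 and 10.2 to 14.9 CPM. The summed level of 4 dendritic cell markers was 3.73 to 4.17 CPM in controls and 7.84 to 11.4 CPM in treated libraries, nearly all of it Zbtb46. That of 4 NK cell markers was 1.25 to 2.82 and 2.57 to 5.06 CPM, nearly all Eomes, with Ncr1 and Klra8 at 0 in every library. Of these lists Zbtb46 and Eomes rose (fold 2.48 and 1.99, edgeR adjusted p = 1.33e-05 and 0.0131). The B cell gene Cd79b and the macrophage gene Adgre1 fell (28.6% and 75.0% lower, edgeR adjusted p = 0.00691 and 9.40e-04), Adgre1 from 0.565 ± 0.182 to 0.137 ± 0.0486 CPM (SD, n = 4). Erythroid markers (6 genes) summed to at most 0.565 CPM. The part of these markers in the results below was not tested.

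Among the licensing and helicase genes 12 of 16 fell and 4 were not called, with a median log2 fold change of -0.18. All 16 fitted values were below 0. The MCM proteins form the ring-shaped motor of the replicative helicase. Mcm7 (chr5:138164583-138172422, minus strand, GRCm38), a ring subunit, was at 407, 387, 382 and 360 CPM in controls 1 to 4 and at 348, 300, 320 and 301 CPM in treated 1 to 4. Every treated library lay below every control library (17.4% lower, log2 fold change -0.28 ± 0.06 SE, edgeR adjusted p = 0.00242). Mcm3 (chr1:20802968-20820312, minus strand), another ring subunit, was at 393, 351, 364 and 341 CPM in controls and 340, 297, 308 and 287 CPM in treated libraries. The highest treated library lay just below the lowest control (fold 1.18 lower, edgeR adjusted p = 0.00995). Mcm6 (chr1:128331590-128359664, minus strand) had the highest level per length of this role, 222 CPM per kb in controls. Its values were 664, 620, 654 and 650 CPM in controls and 610, 528, 552 and 534 CPM in treated libraries, with no overlap (14.1% lower, edgeR adjusted p = 0.0059).

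GINS is a small complex that holds the helicase in its active form, and all 4 of its genes fell. Gins1 (chr2:150905400-150931280, plus strand) was at 23.4, 20.02, 20.8 and 19.7 CPM in controls and 18.3, 16.8, 16.8 and 16.9 CPM in treated libraries. The groups were separate, and this was the largest change of the role (17.7% lower, log2 fold change -0.28 ± 0.07 SE, edgeR adjusted p = 0.0059). Gins2 (chr8:120578633-120589304, minus strand) was at 42.3, 33.9, 41.1 and 37.1 CPM in controls and 35.1, 31.6, 32.0 and 32.2 CPM in treated libraries. Control 2 lay below treated 1, so the groups overlapped, though the gene was called (15.2% lower, edgeR adjusted p = 0.0203). The call on Gins2 was lost without control 3, treated 2, treated 3 or treated 4, with an adjusted p of up to 0.0678. It was kept with the replicate block (edgeR adjusted p = 4.25e-04).

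The other called genes of this role were Gins3, Gins4, Mcm4, Mcm10, Cdc6, Cdc45 and Cdt1, with log2 fold changes from -0.20 (Gins3) to -0.11 (Cdt1). Cdc6 and Cdt1 are the loaders that bring the MCM ring to an origin. Mcm2 and Mcm5, the remaining ring subunits, did not pass (log2 fold changes -0.04 and -0.11, edgeR adjusted p = 0.649 and 0.187). The intervals ran from -0.18 to 0.10 for Mcm2 and from -0.24 to 0.03 for Mcm5. Orc1 and Orc6, subunits of the origin recognition complex, did not pass either (log2 fold changes -0.06 and -0.12, edgeR adjusted p = 0.628 and 0.0945). With the replicate number as a block, Mcm5 (edgeR adjusted p = 0.00642) and Orc6 (edgeR adjusted p = 0.00839) were called lower.

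Promoter sequences from RefSeq (GRCm38.p6, 250 bases before to 50 after a start site) were matched for 37 of the 44 genes. They were searched on both strands for the E2F words TTTCCCGC, TTTCGCGC, TTTGCCGC and TTTGGCGC, which can overlap each other, and for CCAAT and GGGCGG. An E2F word was present in 15 of the 37 (40.5%), against 4.79% of the 10127 tested genes with a window and 2.60% of all 27025 genes with a window. The words were found in 8 of 12 licensing and helicase genes, 4 of 7 polymerase genes, 2 of 10 clamp and strand processing genes, 0 of 5 nucleotide supply genes and 1 of 3 chromatin assembly genes. They were found in 8 of 24 genes that fell and in 7 of 13 that were not called. A match is a description of the letters in the window, not of a bound site. An absence means only that none of these exact words was found, and other forms of the site were not searched. In each role with a match, the promoter of the matching gene with the largest fitted change is printed, so the choice used the values. Mcm7 has 2 windows from different start sites, and that with the most words is shown, with its pair of words in capitals. The stretch lies inside the annotated gene. The first begins 165 bases before the start of this window and the other at base 17 counted from that start (chr5:138171854-138172063, minus strand).
Mcm7: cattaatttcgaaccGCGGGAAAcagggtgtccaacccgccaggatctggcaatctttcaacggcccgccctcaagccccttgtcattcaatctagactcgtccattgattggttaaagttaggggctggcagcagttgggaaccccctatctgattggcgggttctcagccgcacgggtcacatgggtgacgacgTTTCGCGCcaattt

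Of the 9 polymerase genes 2 were called lower, near the 18.1% of all tested genes called lower. With the replicate block 3 were called lower, against 25.8% of all tested genes. Both primase subunits fell, and the catalytic and accessory subunits of polymerases alpha, delta and epsilon, 7 genes, did not pass. For the 9 genes the median log2 fold change was -0.04. Whether this role differs from the others was not tested. Prim2 (chr1:33453810-33669795, minus strand), the large primase subunit, was at 55.9, 54.3, 54.0 and 50.7 CPM in controls and 48.1, 43.0, 44.2 and 41.3 CPM in treated libraries. All treated values were below all control values (17.8% lower, log2 fold change -0.28 ± 0.05 SE, edgeR adjusted p = 0.00162). Prim1 (chr10:128015168-128030037, plus strand), the catalytic primase subunit, was at 77.8, 71.6, 72.7 and 72.3 CPM in controls and 67.7, 67.2, 65.0 and 69.9 CPM in treated libraries. The groups were separate by a small margin (8.32% lower, edgeR adjusted p = 0.0366), and the call was lost without control 1, 2 or 3 or treated 2 or 3, with an adjusted p of up to 0.0988. It was kept with the replicate block (edgeR adjusted p = 0.00679).

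Pola1 (chrX:93304767-93632155, minus strand), the catalytic subunit of polymerase alpha that extends the primer, was at 96.8, 93.4, 98.1 and 102 CPM in controls and 95.8, 89.5, 85.5 and 89.9 CPM in treated libraries. Treated 1 lay among the controls. It did not pass (log2 fold change -0.11 ± 0.05 SE, edgeR adjusted p = 0.0689) and was called lower with the replicate block (edgeR adjusted p = 0.0144). Its promoter is shown as that of the matching polymerase gene with the largest fitted change. It holds an E2F word, in capitals, 138 bases before the start, and the gene was not called (chrX:93632126-93632308, minus strand).
Pola1: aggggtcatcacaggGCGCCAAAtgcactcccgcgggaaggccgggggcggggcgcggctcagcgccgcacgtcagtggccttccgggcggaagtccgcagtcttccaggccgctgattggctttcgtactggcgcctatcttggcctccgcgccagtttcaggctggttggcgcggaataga

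Pold1 (chr7:44532746-44548849, minus strand), the catalytic subunit of polymerase delta, had the highest level per length of the polymerases, 55.5 CPM per kb in controls. It was at 185, 196, 196 and 190 CPM in controls and 185, 187, 183 and 193 CPM in treated libraries. The ranges lay over each other (log2 fold change -0.04, interval -0.12 to 0.04, edgeR adjusted p = 0.456). The remaining polymerase subunits were Pola2, Pold2, Pold3, Pole and Pole2, with fitted values from -0.06 (Pold2) to 0.03 (Pole). Pole, the catalytic subunit of polymerase epsilon, and Pold3, an accessory subunit of delta, were the only polymerase genes with fitted values above 0 (edgeR adjusted p = 0.652 and 0.675). The intervals of these 7 genes reached no lower than -0.21, so a fall as large as that fitted for Prim2 lay outside each of them.

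**Figure D3:**
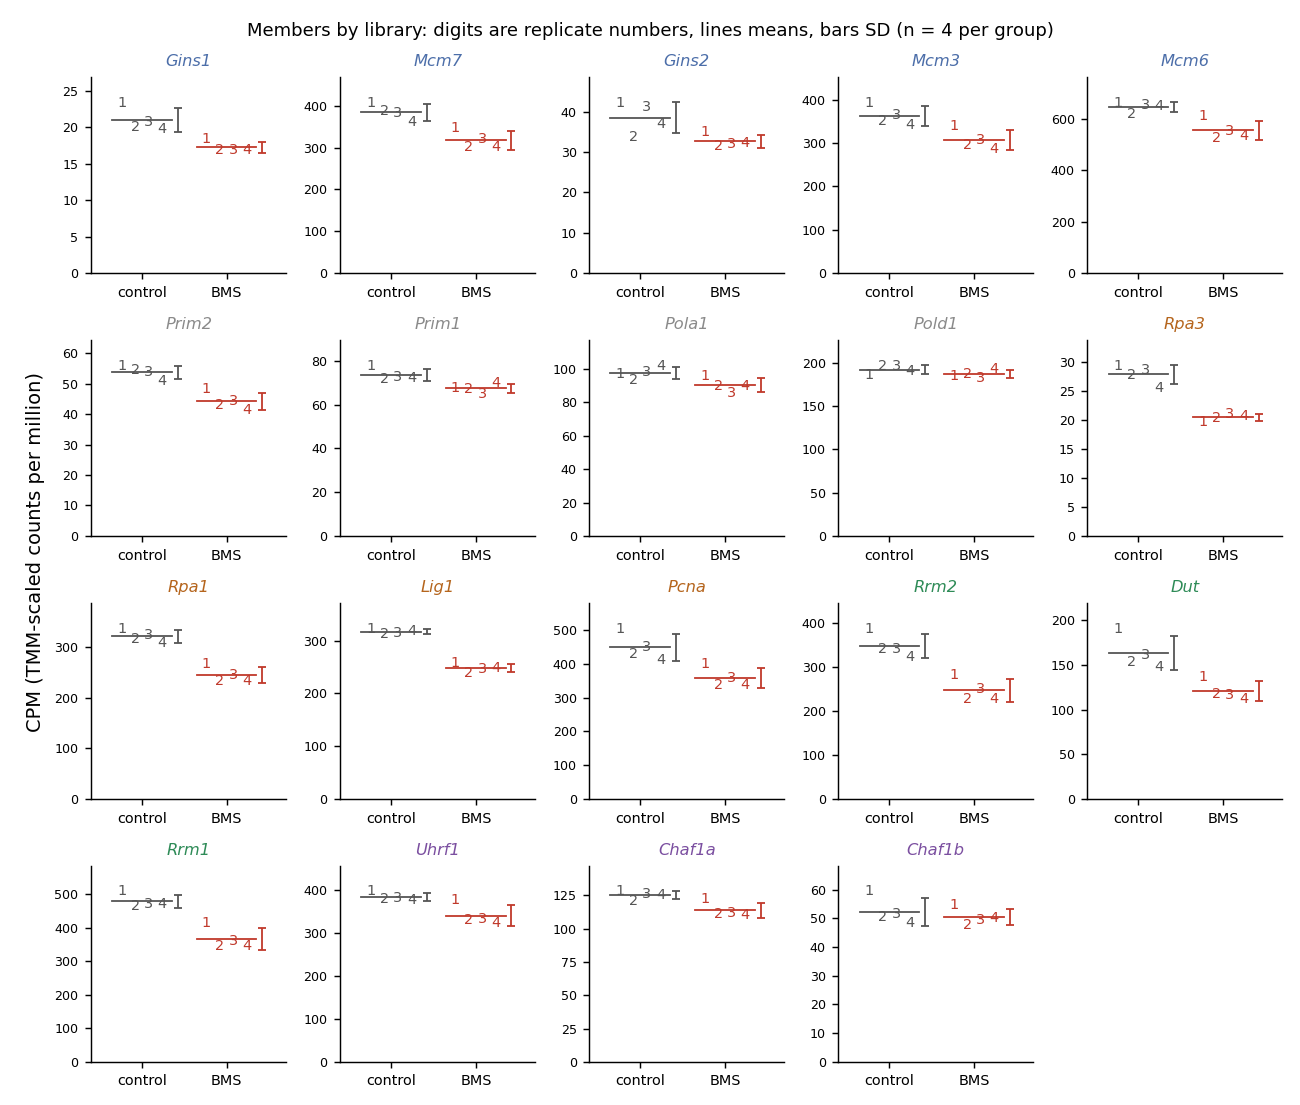
CPM (y axis, from 0) of 19 genes described library by library, controls in grey and BMS309403 (BMS) in red, with digits for replicate numbers, lines for means and bars for the SD of 4 libraries. For Lig1, Rpa3 and Rrm2 the groups stand well apart, while for Pold1, Pola1 and Chaf1b they lie over each other.

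Of the clamp, clamp loader and strand processing genes, 9 of 11 fell and 2 were not called, with a median log2 fold change of -0.25. Replication protein A (RPA) coats the single strands exposed at the fork. Rpa3 (chr6:8255936-8259173, minus strand), its small subunit, was at 29.3, 27.7, 28.6 and 25.5 CPM in controls and 19.7, 20.3, 20.98 and 20.7 CPM in treated libraries. Treated 1 was here the lowest library, unlike for most of the genes (26.5% lower, log2 fold change -0.44 ± 0.06 SE, edgeR adjusted p = 8.17e-05). Rpa1 (chr11:75298166-75348324, minus strand), the large DNA-binding subunit, was at 336, 315, 324 and 307 CPM in controls and 266, 232, 244 and 233 CPM in treated libraries. Again no treated library reached the controls (24.0% lower, log2 fold change -0.40 ± 0.05 SE, edgeR adjusted p = 1.05e-04). Rpa2, the middle subunit, was 16.0% lower (edgeR adjusted p = 0.00581).

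Lig1 (chr7:13277283-13311433, plus strand) encodes the ligase that joins the fragments of the lagging strand. It was at 323, 313, 313 and 318 CPM in controls and 257, 239, 246 and 248 CPM in treated libraries. The groups stood far apart relative to their spread, and it had the smallest adjusted p of the 44 (21.9% lower, log2 fold change -0.36 ± 0.04 SE, edgeR adjusted p = 2.17e-05). By the same rule, a stretch inside the transcript from 1 of its RefSeq start sites is shown with its E2F word in capitals. The word begins at base 27 counted from that start. The start itself lies before the printed bases (chr7:13278838-13278867, plus strand).
Lig1: tcccgccaaagtgcGCGCGAAAtctgtgtg

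Pcna (chr2:132249162-132253314, minus strand) encodes the sliding clamp and had the highest level per length of all 44 genes, 296 CPM per kb in controls. It was at 505, 430, 449 and 412 CPM in controls and 399, 339, 359 and 337 CPM in treated libraries, with replicate 1 highest in both groups and no overlap (20.2% lower, log2 fold change -0.33 ± 0.07 SE, edgeR adjusted p = 0.00362). Pcna and Tyms have pseudogenes of the same name in the annotation, and no label says how reads with several matches were counted. Fen1, the nuclease that trims flaps between lagging-strand fragments, was 16.6% lower with overlapping groups (edgeR adjusted p = 0.0176), a call lost without treated 2 or treated 4 (adjusted p up to 0.0559). With the replicate block the call on Fen1 was kept (edgeR adjusted p = 5.40e-06), and the treated library was lower in all 4 same-numbered pairs.

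The clamp loader (RFC) has a large subunit, Rfc1, and 4 small ones, and 3 of these 5 genes fell. Rfc4 was 15.6% lower (edgeR adjusted p = 0.00412), Rfc1 and Rfc2 were 7.70% and 8.40% lower (edgeR adjusted p = 0.0401 and 0.0276), and Rfc5 did not pass (log2 fold change -0.06, edgeR adjusted p = 0.477). Of the 8 fits that left out a library, 1 kept the call on Rfc1 and 3 that on Rfc2. The replicate block kept the calls on Rfc1 and Rfc2 (edgeR adjusted p = 0.00406 and 0.00438). Rfc3 (chr5:151642756-151651242, minus strand) was at 51.9, 44.4, 43.0 and 41.3 CPM in controls and 51.7, 46.8, 50.9 and 52.4 CPM in treated libraries. Control 1 lay with the treated libraries and the other 3 controls lay below all of them. It did not pass (log2 fold change 0.16 ± 0.07 SE, edgeR adjusted p = 0.088). It was called higher with the replicate block (edgeR adjusted p = 0.0116), without control 1 (edgeR adjusted p = 0.00297) and with total-count scaling (edgeR adjusted p = 0.0487). The promoter of Rfc3, chosen after its values were seen, is shown for its closely spaced pair of E2F words in capitals, 1 beginning 10 bases before the start and the other at the start (chr5:151651179-151651268, minus strand). The words are the same as those of Mcm7, which fell.
Rfc3: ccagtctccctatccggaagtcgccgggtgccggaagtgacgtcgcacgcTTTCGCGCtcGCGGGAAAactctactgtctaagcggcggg

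All 5 nucleotide supply genes fell, and their median log2 fold change, -0.39, was the lowest of the 5 roles. Rrm2 and Rrm1 encode the small and large subunits of ribonucleotide reductase, which makes deoxynucleotides from ribonucleotides. Rrm2 (chr12:24708241-24714146, plus strand) was at 387, 340, 340 and 322 CPM in controls and 282, 227, 250 and 227 CPM in treated libraries. The highest treated library lay below the lowest control, and this was the largest change of the 44 genes (29.0% lower, log2 fold change -0.49 ± 0.08 SE, edgeR adjusted p = 3.46e-04). Rrm2 also had the highest level per length of its role, 158 CPM per kb in controls and 112 in treated cells. Rrm1 (chr7:102441695-102469771, plus strand) was at 508, 465, 471 and 470 CPM in controls and 414, 347, 359 and 346 CPM in treated libraries, again separate (23.4% lower, log2 fold change -0.39 ± 0.06 SE, edgeR adjusted p = 4.06e-04).

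The Rrm2 window, chosen after its values were seen, held none of the exact E2F words searched. It is shown for its CCAAT word, in capitals, 50 bases before the start (chr12:24708189-24708283, plus strand). CCAAT was present in a window of 23 of the 37 genes with a window (62.2%), against 43.2% of the tested genes with a window.
Rrm2: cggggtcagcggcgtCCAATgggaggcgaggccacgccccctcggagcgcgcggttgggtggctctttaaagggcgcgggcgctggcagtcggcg

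Dut (chr2:125247190-125258608, plus strand) encodes the enzyme that removes dUTP and so keeps uracil out of DNA. It was at 191, 154, 161 and 148 CPM in controls and 137, 117, 116 and 112 CPM in treated libraries, separate despite a high control 1 (26.1% lower, log2 fold change -0.44 ± 0.08 SE, edgeR adjusted p = 0.00156). Tk1, the thymidine kinase of the salvage route, was 14.9% lower (120 ± 1.10 CPM against 102 ± 4.69 CPM, SD, n = 4, edgeR adjusted p = 9.55e-04). Tyms, which makes thymidylate, was 12.7% lower (edgeR adjusted p = 0.0169), a call lost without treated 2 (adjusted p = 0.0592). With the replicate block the call on Tyms was kept (edgeR adjusted p = 1.38e-04).

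Of the chromatin assembly genes 2 of 3 fell, with a median log2 fold change of -0.14. Uhrf1 (chr17:56303321-56323486, plus strand), which guides the maintenance of DNA methylation to new strands, was at 397, 380, 382 and 376 CPM in controls and 377, 329, 333 and 323 CPM in treated libraries. Treated 1 lay at the level of the controls and the other 3 treated libraries below them (11.2% lower, edgeR adjusted p = 0.021). Chaf1a (chr17:56040439-56072289, plus strand), the large subunit of the histone chaperone CAF-1, was at 128, 121, 126 and 125 CPM in controls and 122, 111, 112 and 110 CPM in treated libraries, with the same overlap of treated 1 (8.98% lower, edgeR adjusted p = 0.0276). Both calls were lost without treated 2, 3 or 4, and that on Chaf1a also without control 3, with adjusted p of up to 0.0676 for Uhrf1 and 0.0852 for Chaf1a. The replicate block kept both (edgeR adjusted p = 3.46e-04 for Uhrf1 and 0.00164 for Chaf1a). Chaf1b (chr16:93883901-93906115, plus strand), the middle subunit of CAF-1, was at 59.4, 50.4, 51.4 and 48.3 CPM in controls and 54.5, 47.8, 49.3 and 50.1 CPM in treated libraries. These ranges overlapped and it did not pass (log2 fold change -0.05, interval -0.20 to 0.09, edgeR adjusted p = 0.563). By the same rule, 1 of the 2 Uhrf1 windows is shown, with its E2F word, in capitals, 185 bases before the start of that window (chr17:56304113-56304342, plus strand). This stretch lies inside the annotated gene.
Uhrf1: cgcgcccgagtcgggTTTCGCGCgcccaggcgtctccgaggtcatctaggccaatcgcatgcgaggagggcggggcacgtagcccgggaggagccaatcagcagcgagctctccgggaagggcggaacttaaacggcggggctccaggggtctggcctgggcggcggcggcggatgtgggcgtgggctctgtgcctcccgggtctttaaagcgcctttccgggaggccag

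Subunits of a complex could be compared within each library, a measure that does not depend on library scaling. For each subunit the log2 CPM minus the mean log2 CPM of the other subunits of its complex was compared between groups, 28 ratios in all. This comparison was chosen after values were seen. With 70 arrangements of the libraries, the two-sided exact permutation test can give no p below 0.0286, and 10 ratios reached it. After Benjamini-Hochberg adjustment over the 28 ratios all 10 stood at an adjusted p of 0.08 (exact permutation), so 0 passed. At this floor a ratio can pass only if more than 10 of the 28 reach the floor too. That 0 passed is therefore a limit of the test, and no conclusion on an unchanged balance is drawn from it. The largest difference, treated minus control, was 0.30 for Rfc3, whose ratio lay between -1.20 and -0.98 in controls and between -0.87 and -0.76 in treated libraries. For Rfc4 it was -0.21. Within polymerase alpha-primase the difference was 0.13 for Pola2 and -0.19 for Prim2. Within the MCM ring it was 0.17 for Mcm2 and 0.08 for Mcm5, against -0.12 for Mcm7 and -0.07 for Mcm3. Rpa2 was 0.17 higher against Rpa1 and Rpa3, and Gins4 0.07 higher against the other GINS genes. In each of these 10 ratios the treated libraries did not overlap the controls, which the smallest possible p requires. The ratios within a complex are not independent, because each subunit also enters the ratios of the others.

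**Figure D4:**
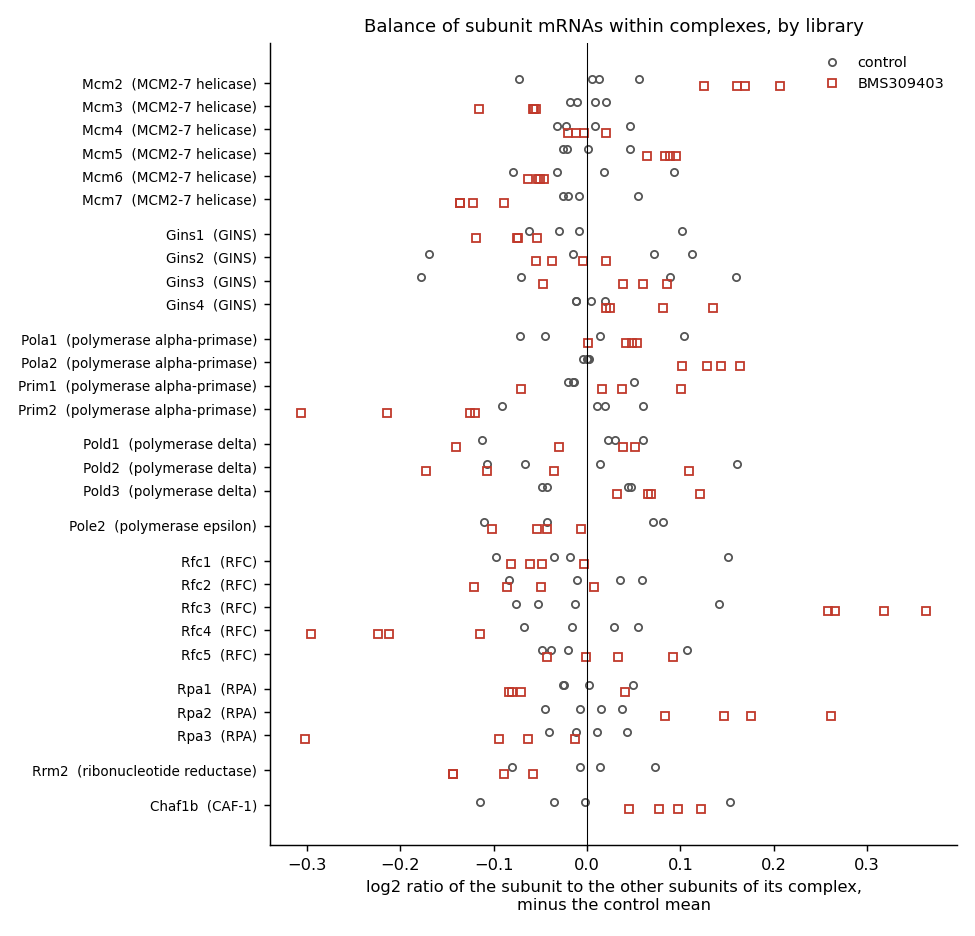
Log2 ratio of each subunit's CPM to the mean of the other subunits of its complex, minus the control mean of that ratio (x axis), for each of 8 libraries (circles control, squares BMS309403). Treated squares of Rfc3, Mcm2 and Rpa2 lie right of all control circles, and those of Rfc4, Prim2 and Mcm7 left of them.

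Further genes of the same pathways were counted from lists. For comparison, 18.1% of all tested genes were called lower and 18.7% higher, or 25.8% and 26.6% with the replicate block. Of 34 other replication factors 9 fell, 4 rose and 21 were not called, with a median log2 fold change of -0.03. With the replicate block 12 fell and 7 rose. Pclaf, a small protein that binds the Pcna clamp, fell most, from 303 ± 19.4 to 193 ± 22.0 CPM (SD, n = 4, log2 fold change -0.65 ± 0.07 SE, edgeR adjusted p = 3.99e-05). Recql4, a helicase of the RecQ family that takes part in origin firing, rose from 30.5 ± 2.43 to 38.5 ± 4.15 CPM (SD, n = 4, log2 fold change 0.34 ± 0.08 SE, edgeR adjusted p = 0.00627). Rnaseh2c, a subunit of the nuclease that removes ribonucleotides from DNA, fell by 0.32 on the log2 scale with overlapping groups (edgeR adjusted p = 0.0102).

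Of 15 other genes of deoxynucleotide metabolism 2 fell, 3 rose and 10 were not called, and with the replicate block 7 fell and 4 rose. Without the block, these counts were near the shares of all tested genes, 18.1% lower and 18.7% higher. Dck, the kinase that salvages deoxycytidine, fell from 155, 148, 146 and 141 CPM in controls to 110, 92.0, 99.1 and 89.3 CPM in treated libraries, with no overlap (log2 fold change -0.60 ± 0.06 SE, edgeR adjusted p = 1.66e-05). Rrm2b, the p53-inducible alternative to Rrm2, went the opposite way to Rrm2 and Rrm1. It was at 14.4, 14.8, 15.7 and 15.8 CPM in controls and 19.9, 23.0, 22.8 and 23.4 CPM in treated libraries (log2 fold change 0.55 ± 0.07 SE, edgeR adjusted p = 5.07e-05). Dctd, which deaminates dCMP, rose by 0.34 on the log2 scale with overlapping groups (edgeR adjusted p = 0.0242), a call kept in only 3 of the 8 fits that left out a library. Samhd1, an enzyme that breaks down deoxynucleotide triphosphates, rose from 988 ± 45.0 to 1187 ± 55.5 CPM (SD, n = 4, log2 fold change 0.26 ± 0.05 SE, edgeR adjusted p = 0.00149).

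In the purine route, which builds nucleotides from small precursors, 4 of 11 fell and 7 were not called, and with the replicate block 7 fell and 1 rose. Paics, which catalyses a pair of middle steps, fell most (278 ± 9.14 against 220 ± 14.2 CPM, SD, n = 4, edgeR adjusted p = 3.17e-04). Adss, on the branch to AMP, fell by 0.23 and Impdh1, on the branch to GMP, fell by 0.19 on the log2 scale (edgeR adjusted p = 0.00176 and 0.0239). In the pyrimidine route 1 of 6 fell, Ctps2, a CTP synthase (log2 fold change -0.15, edgeR adjusted p = 0.0232), and with the replicate block 3 fell and 2 rose. Without the block, 1 of 6 is near the 18.1% of all tested genes called lower.

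Among 10 histone chaperones and maintenance factors 6 fell (7 with the replicate block) and 4 were not called, and the median log2 fold change was -0.20. The largest were Asf1b, a chaperone that hands histones to CAF-1 (log2 fold change -0.38 ± 0.05 SE, edgeR adjusted p = 2.04e-04), Rbbp4, the small subunit of CAF-1 (-0.28, edgeR adjusted p = 0.00574), and the histone acetyltransferase Hat1 (-0.24, edgeR adjusted p = 0.00334). Of the replication checkpoint and fork repair genes (19), 6 fell, 1 rose and 12 were not called, and with the replicate block 6 fell and 3 rose. Chek2, a checkpoint kinase, fell by 0.41 and Fanci, a fork repair factor, fell by 0.26 on the log2 scale (edgeR adjusted p = 1.55e-04 and 1.54e-04). Without the block the gene that rose was Cdkn1a, which encodes the cyclin-dependent kinase inhibitor p21, a protein that also binds Pcna. It was at 144, 139, 164 and 144 CPM in controls and 177, 184, 199 and 178 CPM in treated libraries, with no overlap (log2 fold change 0.32 ± 0.06 SE, edgeR adjusted p = 0.00114).

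Of 21 genes of E2F and RB control 12 fell (14 with the replicate block) and 9 were not called. Ccna2 and Ccne1, the cyclins that drive S phase and entry into it, fell by 0.42 and 0.39 on the log2 scale (edgeR adjusted p = 2.78e-05 and 1.18e-04), and Ccne2 fell by 0.32 with overlapping groups (edgeR adjusted p = 0.0275). E2f2, an activating E2F named after its values were seen, fell from 211 ± 11.6 to 183 ± 3.75 CPM (SD, n = 4, log2 fold change -0.20 ± 0.05 SE, edgeR adjusted p = 0.00428). E2f1, another activating E2F, was at 49.7 ± 1.82 CPM in controls and 51.2 ± 1.99 CPM in treated libraries (SD, n = 4) and did not pass (log2 fold change 0.04 ± 0.05 SE, edgeR adjusted p = 0.476). The falls were not particular to activating E2Fs. E2f7, E2f8 and the RB family gene Rbl2 also fell (log2 fold changes -0.22, -0.13 and -0.27, edgeR adjusted p = 0.00253, 0.0446 and 0.0108). E2f3, E2f4, E2f5 and E2f6 were not called, and E2f4 was called lower with the replicate block (edgeR adjusted p = 0.00568).

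Most mitotic markers fell in the treated group, as did most of the 44 genes. Whether they moved together across libraries was not tested. Of 10, 9 fell, with a median log2 fold change of -0.44, and in each of the 9 every treated library lay below every control library. Cdc20, Ccnb2 and Cdk1, which drive entry into and exit from mitosis, fell by 0.50, 0.46 and 0.46 on the log2 scale (edgeR adjusted p = 1.20e-05, 3.77e-06 and 3.76e-05). Mki67, a marker of cells in cycle, was at 970, 1059.6, 1053 and 1237 CPM in controls and 925, 1013, 881 and 985 CPM in treated libraries. The groups overlapped and it did not pass (log2 fold change -0.18 ± 0.07 SE, edgeR adjusted p = 0.0643), though it did with the replicate block (edgeR adjusted p = 0.00238). The part of the mitotic markers in the results on the 44 genes was not tested.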

How the data were processed

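RNA-seq counts of 8 mouse libraries were used. The authors deposited whole-number read counts per Ensembl gene, without normalization. Per the submitters' processing notes the tools included STAR, featureCounts, DESeq2 and deepTools with the GRCm38 build, and strand and multi-match settings are not given in the sources used here. Exons of 15 of the 44 genes overlap another gene, 3 on the same and 13 on the opposite strand, Mcm7, Rpa1 and Lig1 among them, so their counts are uncertain to that extent.

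Low genes were removed by filterByExpr, libraries were scaled by TMM, and edgeR's quasi-likelihood test (version 4.0.16, R 4.3.3) was run on the counts with treatment as the single term and Benjamini-Hochberg adjustment over 14443 genes. Adjusted p-values in the text are from this model where no other is named, and SEs and 95% intervals were derived from the F statistic with 11.8 degrees of freedom. CPM is scaled by TMM-adjusted library size. CPM per kb uses the length of the principal coding transcript in GENCODE M21, which also gave coordinates and symbols (for 53274 of 53465 IDs). The script was tested on simulated counts of independent libraries with a fixed dispersion and no replicate effect. That simulation therefore does not bear on the choice between the unpaired and the block model. Libraries of the same group differed beyond sampling noise (chi-square per degree of freedom 3.08 to 24.2).

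Replicate numbers come from the titles, and the labels do not say what they mark. Deviations from the group means correlated at 0.384, 0.145, 0.106 and 0.264 for numbers 1 to 4, all over 0.1, so the numbers may pair the samples, although treated 2 correlated more with control 4 (0.208). The main model and the exact tests are unpaired. The block fit is given beside results whose call it changes, and beside some calls lost when a library was left out. Leaving out a library also leaves the same-numbered library of the other group without its match. Alternatives were other scalings, no filter, DESeq2 1.42.0, limma-voom 3.58.1, the replicate block and leaving out libraries. Described library by library are the 4 genes (licensing) or 3 genes (other roles) with the largest change and the gene with the highest level per length, and Rfc3, added after its values were seen. From other lists up to 3 called genes are named by size, with Mki67, Foxp3, Fabp5, E2f1, Cdkn1a and Samhd1, and 1 further gene of that rule is not reported here. The genes and lists were chosen with earlier results of these data known.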

Additional observations from a re-analysis of the deposited data

Results flagged for a closer look

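In 10 of 88 groups of 4 libraries, 1 library lay far from the other 3 by Dixon's test at its critical value. For independent groups chance gives about 1 in 20. The 88 groups come from the same libraries and are not independent, so no excess can be read from this count. The distant library was replicate 1 in 8 of the 10, and it was the high one in 9.

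In the controls, replicate 1 was at 322 CPM for Mcm4 (the others 297 to 299), 102 CPM for Cdc45 (91.4 to 93.1) and 508 CPM for Rrm1 (465 to 471). Control 4 was at 175 CPM for Pole (163 to 164), and control 3 was low for Pole2 at 23.9 CPM (27.0 to 27.6).

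In the treated cells, replicate 1 was at 269 CPM for Mcm2 (the others 236 to 241), 74.2 CPM for Cdc6 (64.6 to 65.5), 18.3 CPM for Gins1 (16.8 to 16.9), 21.3 CPM for Orc1 (17.8 to 18.2) and 122 CPM for Chaf1a (110.2 to 111.9).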

How the results depend on the processing

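Over 15 alternatives to the main settings, 584 of the fitted values of single genes kept their direction and call, 60 lost the call, 11 gained it and 5, all of them uncalled, changed sign. Without control 1 these were Mcm2 (0.012), Orc1 (0.022), Rfc5 (0.000582) and Chaf1b (0.011), whose other extremes were -0.088, -0.13, -0.11 and -0.10 without treated 1, and without replicate 1 of both groups Pole (-0.00491). The number of the 44 genes called higher was 1 (Rfc3) with total counts only, with the replicate block, without control 1 and without replicate 1 of both groups, and 0 otherwise. The number called lower was 24 with no filter on low counts, 27 with total counts only and 33 with the replicate block, which added Mcm5, Orc6 and Pola1 and, beside Rfc3, changed no other call on the 44. It ranged from 17 to 31 when single libraries were left out. The number of genes changed in either direction was 5311, 7573 with the block and 4113 to 5718 when single libraries were left out. The median log2 fold change of the 44 genes lay between -0.20 and -0.14 when libraries were left out. The 6 falls under 10% were each lost in at least 4 of the 8 fits that left out a library.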

Other observations

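Replicate 1 was the highest library of both groups at once for 31 of the 44 genes, against 20.8% of all 14432 genes compared. In the controls it was highest for 35.9% of genes and in the treated group for 31.3%. What the replicate numbers stand for is not stated, and the cause was not tested.

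The GC box word GGGCGG was present in a window of 29 of the 37 genes with a window (78.4%), against 68.2% of the tested genes with a window. The E2F words were present in Mcm3, Mcm5, Mcm6, Mcm7, Cdc6, Cdt1, Gins3, Orc1, Pola1, Pold1, Pold3, Pole2, Rfc3, Lig1 and Uhrf1.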
